A study of Mus musculus with 3 samples.

Results

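The genes examined were the 7 inhibitors of cyclin-dependent kinases (CDKs) listed by name, *Cdkn1a*, *Cdkn1b*, *Cdkn1c*, *Cdkn2a*, *Cdkn2b*, *Cdkn2c* and *Cdkn2d*. They are 7 of the 28953 genes listed over 3 single-cell RNA sequencing (scRNA-seq) libraries. All 7 were found in each library, of 27755 genes in the D10 culture and the E14.5 tail and of 25936 genes in D6 PM. They were chosen with their levels in the culture, in the tail and in cycling cells known, so that these levels are a description and no test was made of them.

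The study compared tendon cells made from mouse embryonic stem cells with those of embryonic tendon. The stem cells carried the ScxGFP tendon reporter and had been kept on irradiated mouse embryonic fibroblast feeders. D6 PM is the culture after embryoid body formation with LDN-193189, an inhibitor of BMP receptors, and induction of paraxial mesoderm with LDN-193189 and CHIR, an activator of WNT signaling. The D10 culture is the whole culture after 4 more days with TGFβ1, FGF2 and SAG, an agonist of hedgehog signaling, and the tail was cut from E14.5 embryos of ScxGFP mice. The stem cell line and the number of embryos behind each library are not given in the sources used here.

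Each condition was 1 library, and cells of 1 library are not replicates. There were 7821 culture cells, 2052 tail cells and 5954 D6 PM cells, and the median cell held 5622, 13512 and 8171 unique molecular identifiers (UMIs, each marking 1 captured transcript). Pairs of libraries shared 3 to 10 cell barcodes, and Scrublet called 116, 9 and 81 cells as doublets. The authors' clusters are named here by the code in the files, which the culture and the tail share and D6 PM does not. Code 1 is tendon by its markers, with *Scx*, a transcription factor of tendon, at a level of 2410 CPM (counts scaled to a total of 1000000) in the culture and 1472 in the tail. Code 2 is the cycling tendon code, with the proliferation gene *Mki67* at 950 CPM against 133 in code 1 of the culture and at 1072 against 33.8 in the tail. Code 4 is fibrocartilage or cartilage, with the cartilage collagen *Col2a1* at 2271 CPM in the culture and 4282 in the tail.

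CDK inhibitors hold cells back from division, and their proteins fall into 2 families. The CIP/KIP proteins p21 (*Cdkn1a*), p27 (*Cdkn1b*) and p57 (*Cdkn1c*) bind complexes of cyclins with several CDKs, and the INK4 proteins p16 (*Cdkn2a*), p15 (*Cdkn2b*), p18 (*Cdkn2c*) and p19 (*Cdkn2d*) bind CDK4 and CDK6. *Cdkn1a* is a classical target of p53, *Cdkn1c* is imprinted and used by differentiating mesenchyme, cartilage and muscle, and the neighbouring genes *Cdkn2a* and *Cdkn2b* are kept nearly silent in embryonic tissue by polycomb proteins.

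Levels are CPM: for 1 code in 1 library, the cells' UMIs of a gene were added up and divided by all their UMIs, and ratios are ratios of such CPM. Because 3′ libraries give about 1 count per transcript whatever its length, CPM of different genes can be set side by side, apart from differences in capture. Ranges in parentheses are exact 95% intervals and cover counting error only. Shares of cells with a UMI were taken after each cell was thinned to 3000 UMIs, with shallower cells left out, so that libraries of different depth could be compared.

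The culture and the tail differed in which inhibitors their tendon cells held. In tail code 1, *Cdkn1c* made up 97.2% of the UMIs of the 7 genes, and *Cdkn1a*, *Cdkn2a* and *Cdkn2b* were nearly without counts. In culture code 1, *Cdkn1c* made up 61.3%, and *Cdkn1a*, *Cdkn2a* and *Cdkn2b* each stood above 100 CPM. The INK4 genes together stood at 289 CPM in culture code 1 against 29.5 in tail code 1, and the CIP/KIP genes at 2075 against 3772. The sum over the 7 genes was lower in the culture, 2364 CPM against 3802.

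Of the 7 genes, 5 were at least 2-fold higher and 1 was at least 2-fold lower in culture code 1 than in tail code 1. Of the 6 detected in no less than 10% of cells in 1 or both libraries, 4 were higher and 1 was lower. Among all 10418 genes that passed this filter, 5.76% were at least 2-fold higher and 13.6% at least 2-fold lower, with a median log2 ratio of -0.21. In code 2, where all 7 genes passed, 3 were higher and 0 lower, beside 5.5% and 13.6% of 11232 genes. The genes were chosen by this contrast, and nothing is read from these counts.

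In the other codes that the libraries share, 0 to 2 of the genes that passed the filter were lower and 1 to 5 higher. Code 3 had 3 genes higher and 2 lower (16.9% and 23.3% of all genes), code 4 had 1 and 1 (4.86% and 13%), and code 5 had 1 and 1 (13.4% and 20.5%). Code 6 had 2 and 0 (83.9% and 2.24%), and there the median gene was 2.16 higher on the log2 scale. Code 7 had 4 and 1 (7.76% and 11.3%), code 8 had 5 and 0 (14% and 17.1%), code 9 had 3 and 1 (12.4% and 28.5%) and code 11 had 4 and 1 (13.9% and 15.5%).

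**Figure D1:**
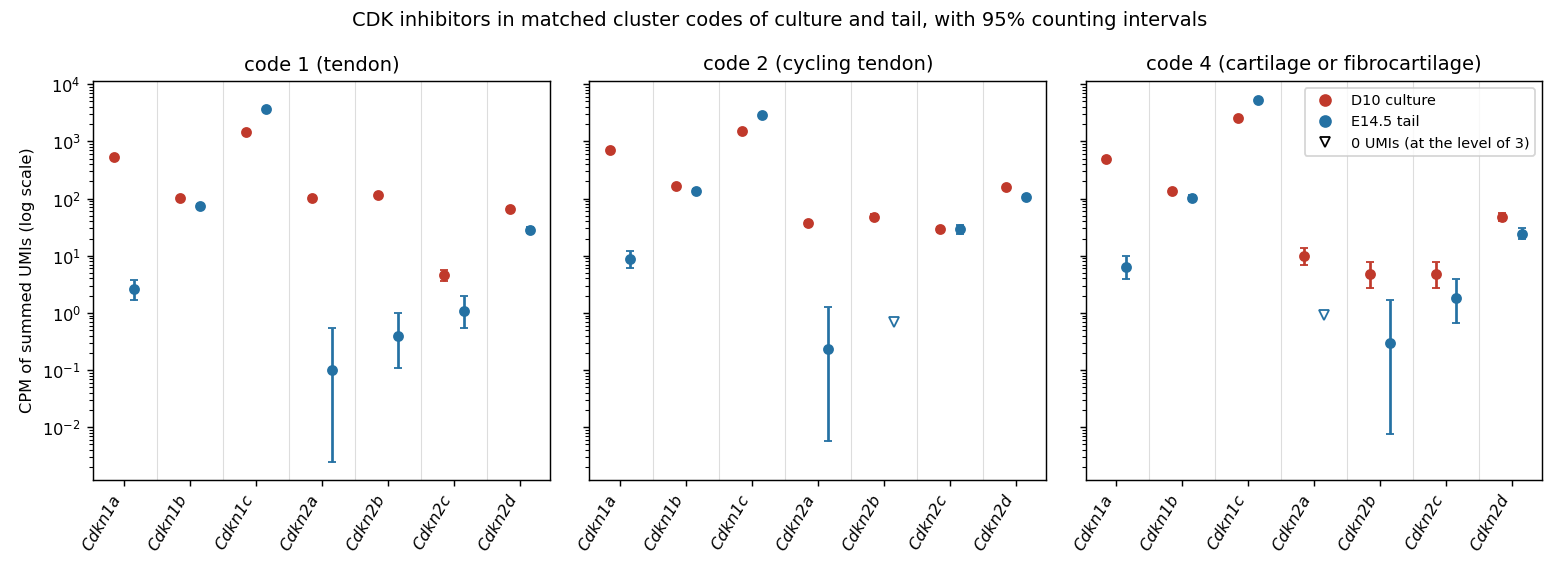
Level of the 7 genes in codes 1, 2 and 4 of the D10 culture and the E14.5 tail, as CPM on a log scale, with exact 95% Poisson intervals; an open triangle marks 0 UMIs, drawn at the level of 3 counts. *Cdkn1a*, *Cdkn2a* and *Cdkn2b* lie far apart between the libraries in these codes, *Cdkn1b* lies close together, and *Cdkn1c* is lower in the culture (0.392, 0.529 and 0.470 times the tail).

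Among the CIP/KIP genes, *Cdkn1a* had the largest ratio of culture to tail. Culture code 1 held 8687 *Cdkn1a* UMIs (524 CPM) and tail code 1 held 26 (2.57 CPM), a ratio of 204 (139 to 312). Code 2 held 7447 UMIs (695 CPM) in the culture and 38 (8.78 CPM) in the tail, a ratio of 79.2 (57.7 to 112). In cells with a *Scx* UMI, thinned to 3000 UMIs, these ratios were 90.3 (35.2 to 332) and 36.9 (14.4 to 135), each on 4 tail UMIs, which in code 2 lay in 1 cell, a spread that the interval does not cover. Code 4 held 502 CPM against 6.35, a ratio of 79.1 (51.6 to 128). The gene was thus above 500 CPM in these 3 codes of the culture and below 10 CPM in those of the tail. At 3000 UMIs per cell, 52.7% of culture code 1 cells and 0.737% of tail code 1 cells had a *Cdkn1a* UMI.

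*Cdkn1a* UMIs were found in each culture and D6 PM code with at least 20 cells. Over these 11 culture codes it ranged from 137 CPM in code 5 to 2125 in code 9, and over the 6 codes of D6 PM from 281 in code 3 to 1693 in code 5. Over the 13 tail codes it ranged from 0 UMIs in the erythroid code 12 to 245 CPM in code 5. The 6 erythroid genes summed to 865147 CPM in tail code 12, which lowers the CPM of all other genes there. Free RNA also gives UMIs in droplets, and erythroid genes summed to 1469 CPM in tail code 1 and 4465 CPM in tail code 2. The lowest share of cells with a *Cdkn1a* UMI was 20.7% in the culture (code 5), and how much of it is free RNA was not tested. Tail code 5 is skeletal muscle, with *Myog*, a transcription factor of muscle differentiation, at 1331 CPM. The next tail code in the order was the epithelial code 8 at 67.7 CPM (56.0 to 81.1), and the codes that followed overlapped with their neighbours in their intervals. *Cdkn1a* was higher in the culture in 9 of the 10 codes compared, from 14.3-fold (11.8 to 17.5) in code 8 to 204-fold in code 1. Cells that share a code were not always alike in their markers. Culture code 3 held 5962 CPM of pluripotency markers. Epithelium markers summed to 1157 CPM in culture code 3 and 4495 CPM in tail code 3. Erythroid markers summed to 1916 CPM in culture code 6 and 153980 CPM in tail code 6. The part of such differences in the ratios was not tested. In code 5 *Cdkn1a* was lower in the culture, a ratio of 0.560 (0.503 to 0.625). The culture cells with that code were mixed in their markers, with *Myog* at 36.8 CPM. Their 6 skeletal muscle markers summed to 422 CPM, the most of any culture code but below the 6266 CPM of tail code 5, and their pluripotency and epithelium markers summed to 1384 and 953 CPM.

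The start of *Cdkn1a* is shown because p53 is known to act on this gene. Levels of other p53 targets are given further on, and the part of p53 in the level of *Cdkn1a* was not tested. RefSeq (build GRCm38.p6) gives 2 starts, and the 250 bases before the first lie at chr17:29090729-29090978 on the + strand. Capitals mark matches to the p53 half-site, a decamer that p53 binds in pairs:
*Cdkn1a*, first start: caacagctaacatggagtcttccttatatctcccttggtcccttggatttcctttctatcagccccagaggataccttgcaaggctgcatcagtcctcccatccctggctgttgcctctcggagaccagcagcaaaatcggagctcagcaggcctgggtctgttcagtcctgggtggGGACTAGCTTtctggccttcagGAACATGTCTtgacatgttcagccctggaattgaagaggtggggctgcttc
The window holds 1 pair of p53 half-sites. Of 32851 RefSeq windows of this length, 7.13% held a half-site on either strand, and 21 (0.0639%) held a pair with at most 13 bases between. The window before the second start held no half-site and 2 GC boxes (GGGCGG on either strand), which 32.7% of windows held. RefSeq windows were found for 6 of the 7 genes, and none is given for *Cdkn1c*.

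*Cdkn1c* was the inhibitor with the highest level in codes 1, 2 and 4 of both libraries. It stood at 1449 CPM in culture code 1 (24041 UMIs) and at 3696 CPM in tail code 1 (37422 UMIs), a ratio of 0.392 (0.386 to 0.398). Code 2 gave 1518 CPM in the culture and 2868 in the tail, a ratio of 0.529 (0.517 to 0.542), and code 4 gave 2541 and 5410, a ratio of 0.470 (0.458 to 0.482). Most cells of both tendon codes nevertheless held the transcript. At 3000 UMIs per cell, 84.1% of culture code 1 cells and 97.1% of tail code 1 cells had a *Cdkn1c* UMI. Before thinning, the median cell of code 1 held 5 *Cdkn1c* UMIs in the culture and 41 in the tail, where the most in 1 cell was 315, but tail cells were also deeper (median 13463 UMIs against 4918.5).

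In the tail *Cdkn1c* was led by muscle code 5 at 9094 CPM, then code 4, code 1 and code 2, each apart from the next in its interval. In the culture the order was code 4, code 2 and code 1, followed by the endothelial code 11 at 828 CPM and code 7 at 814, which overlapped. Code 4 exceeded tendon code 1 in both libraries, 1.75-fold (1.71 to 1.80) in the culture and 1.46-fold (1.44 to 1.49) in the tail. The lowest levels were 4.86 CPM in culture code 13 and 20.7 CPM in the erythroid tail code 12, where 5.0% and 4.80% of cells had a UMI. Erythroid genes took 865147 CPM of that tail code, which lowers its level of *Cdkn1c*. In D6 PM the somite-like code 4 held 1724 CPM and the other codes 53.5 to 244 CPM. *Cdkn1c* overlaps the annotated gene *Gm44732*, and *Cdkn1a* the antisense gene *AC167363.2*.

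*Cdkn1b* differed by less than 2-fold between the libraries in codes 1, 2 and 4. It held 102 CPM in culture code 1 (1690 UMIs) and 73.4 CPM in tail code 1 (743 UMIs), a ratio of 1.39 (1.27 to 1.52). The ratio was 1.24 (1.13 to 1.36) in code 2 and 1.34 (1.16 to 1.55) in code 4. These ratios were above 1 beyond counting error. *Cdkn1b* was past 2-fold in code 8 (4.10, 3.07 to 5.53), code 11 (2.96, 2.21 to 3.95) and code 7 (2.89, 1.42 to 6.64). Over the culture codes *Cdkn1b* ranged from 50.1 CPM in code 9 to 249 in the endothelial code 11, and over the tail codes from 8.47 in the erythroid code 12 to 137 in the nerve code 10. Erythroid genes took 865147 CPM of tail code 12, so that its place in this order is not comparable. The next lowest tail level was 39.0 CPM in code 8. Endothelial cells also led in D6 PM, with 154 CPM in code 6, although the interval overlapped with those of codes 5 and 3 (136 and 133 CPM).

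**Figure D2:**
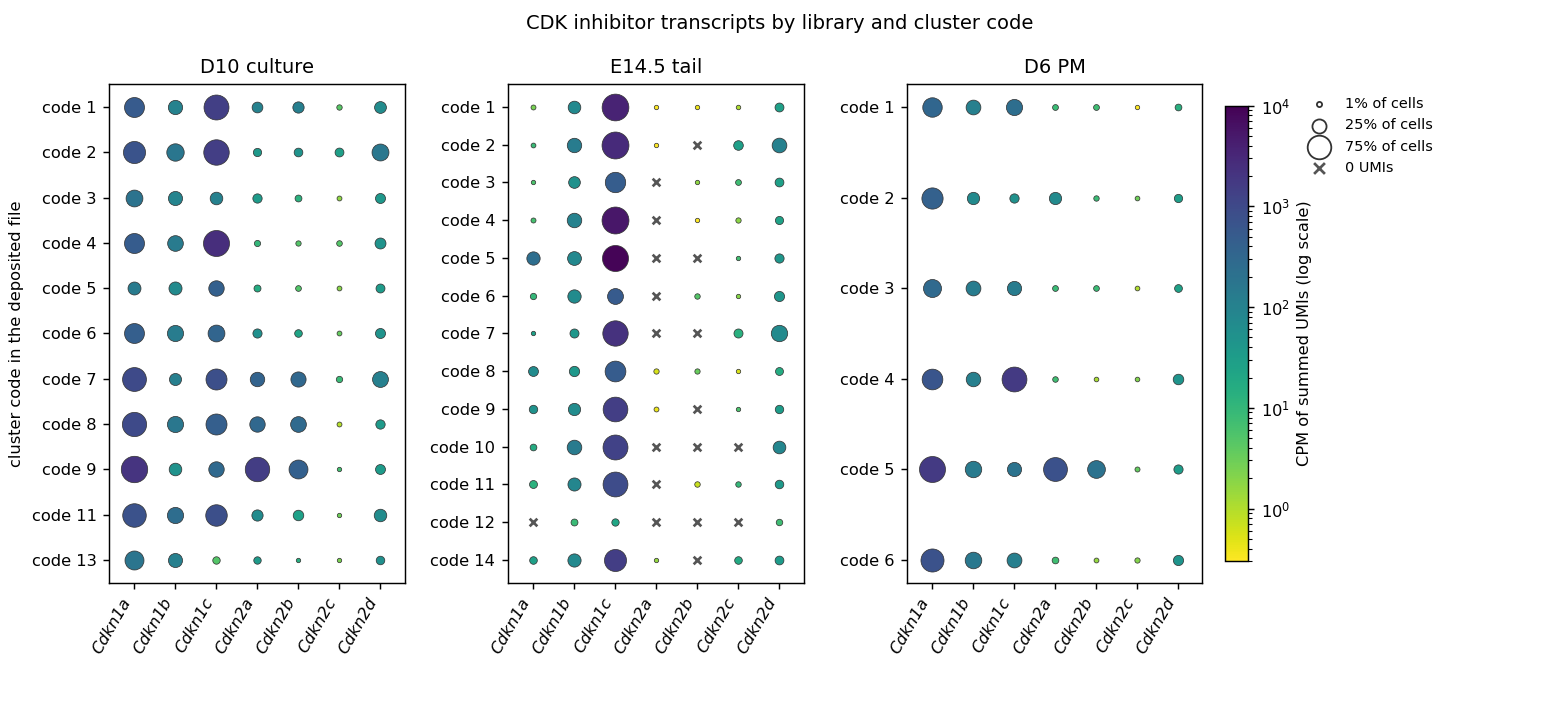
Level and share of cells for the 7 genes in each cluster code of the 3 libraries, with D6 PM on the right; rows are codes with at least 20 cells, color gives CPM on a log scale, point area gives the percentage of cells with a UMI after thinning to 3000 UMIs, and crosses mark 0 UMIs. *Cdkn1a* and *Cdkn1c* are the darkest columns of the culture, *Cdkn1c* stands alone in most tail codes, and *Cdkn2a* and *Cdkn2b* are high in culture code 9 (1553 and 435 CPM) and D6 code 5 (751 and 198 CPM). D6 codes are numbered separately from those of the other libraries.

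*Cdkn2a* and *Cdkn2b*, the neighbouring INK4 genes, were counted in the culture and almost absent from the counts of the tail. *Cdkn2a* held 1724 UMIs (104 CPM) in culture code 1 and 1 UMI in tail code 1, a ratio of 1052 (189 to 41582). *Cdkn2b* held 1900 UMIs (115 CPM) and 4 UMIs, a ratio of 290 (113 to 1065). In code 2, *Cdkn2a* held 393 UMIs and 1 UMI, and *Cdkn2b* held 519 UMIs and 0 UMIs, which makes it at least 69.9-fold higher in the culture when 3 counts over the tail group are set for 0. Over all cells of the tail library, of 31343741 UMIs, 5 were of *Cdkn2a* and 19 of *Cdkn2b*, and no tail code had more than 1 UMI of *Cdkn2a*. At 3000 UMIs per cell, 13.4% of culture code 1 cells had a *Cdkn2a* UMI and 15.0% a *Cdkn2b* UMI, against 0 tail code 1 cells for either gene. Before thinning, 1 and 4 of the 685 tail code 1 cells had a UMI of *Cdkn2a* and *Cdkn2b*.

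The tendon codes were not where *Cdkn2a* and *Cdkn2b* were highest in the culture. Code 9 held 1553 CPM of *Cdkn2a* and 435 CPM of *Cdkn2b*, followed by codes 7 and 8 (371 and 313 CPM of *Cdkn2a*, 307 and 281 CPM of *Cdkn2b*), and then by code 1. The lowest levels were those of code 5 (16.6 and 5.09 CPM) and fibrocartilage code 4 (9.92 and 4.81 CPM), which overlapped in their intervals for both genes. Code 4 held 0.0955 times (0.0655 to 0.135) the *Cdkn2a* and 0.0420 times (0.0240 to 0.0684) the *Cdkn2b* level of code 1. The share of cells with a *Cdkn2a* UMI was 2.65% in code 4 and 13.4% in code 1, with median depths of 3696 and 4918.5 UMIs. Of the 7 inhibitors 2 were at least 2-fold lower in code 4, beside 3.36% of 7077 genes, and 0 were higher, beside 1.54%. In the tail, where these genes had too few UMIs, 0 of the 3 genes that passed the filter were past 2-fold in either direction (3.65% and 6.28% of all genes).

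D6 PM showed the same 2 genes in a fibroblast-like code that is not tendon. D6 code 5, with the collagen *Col1a1* at 3858 CPM and *Scx* at 5.43 CPM, held 751 CPM of *Cdkn2a*, 198 CPM of *Cdkn2b* and 1693 CPM of *Cdkn1a*. Each was the highest of the 6 codes of that library and apart from the next in its interval. Of its cells, 76.5% had a *Cdkn2a* UMI at 3000 UMIs per cell, 41.1% a *Cdkn2b* UMI and 91.3% a *Cdkn1a* UMI. Culture code 9 holds 53 cells, and of the 36 deep enough to be thinned, 80.6%, 47.2% and 94.4% had these UMIs. *Col1a1* stood at 2166 CPM in culture code 9. Tail code 9 also had *Col1a1*, at 2870 CPM, with *Cdkn1a* at 51.4 CPM, 1 UMI of *Cdkn2a* and 0 of *Cdkn2b*. Culture code 9 exceeded D6 code 5 by 2.07-fold (1.9 to 2.24) in *Cdkn2a* and 2.2-fold (1.88 to 2.57) in *Cdkn2b* and was lower in *Cdkn1b* (0.369), so that 2 genes were higher and 1 lower, beside 8.16% and 8.68% of 8481 genes.

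The 3 codes with *Col1a1* and few *Scx* UMIs also held UMIs of macrophage markers. The 5 markers summed to 2007 CPM in culture code 9 (4 of 5 above 0), 2348 in tail code 9 (5 of 5) and 778 in D6 code 5 (5 of 5), against 0 to 17.0 CPM in the other culture codes, 0.907 to 203 in the other tail codes and 1.58 to 3.80 in the other D6 codes. The part of macrophages, and of the irradiated feeder fibroblasts on which the stem cells had been kept, in the levels of these codes was not tested.

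The promoters of the 2 genes are shown because they lie side by side and both genes were high in the same codes. RefSeq (GRCm38.p6) gives *Cdkn2a* 2 starts on the - strand of chromosome 4, the first of the transcript that encodes p19ARF and the second of the one that encodes p16, and 1 start for *Cdkn2b*. The windows of 250 bases lie at chr4:89294620-89294869, chr4:89282193-89282442 and chr4:89311033-89311282, and are given on the strand of the genes, with GC boxes (GGGCGG on either strand) and E2F sites (TTTCGCGC or TTTGGCGC) in capitals where found:
*Cdkn2a*, first start: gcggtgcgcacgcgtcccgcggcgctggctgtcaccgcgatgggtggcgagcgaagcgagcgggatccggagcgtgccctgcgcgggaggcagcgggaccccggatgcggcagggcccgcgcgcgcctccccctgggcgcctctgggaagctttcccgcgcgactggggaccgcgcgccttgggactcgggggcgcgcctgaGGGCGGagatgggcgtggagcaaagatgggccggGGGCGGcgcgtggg
*Cdkn2a*, second start: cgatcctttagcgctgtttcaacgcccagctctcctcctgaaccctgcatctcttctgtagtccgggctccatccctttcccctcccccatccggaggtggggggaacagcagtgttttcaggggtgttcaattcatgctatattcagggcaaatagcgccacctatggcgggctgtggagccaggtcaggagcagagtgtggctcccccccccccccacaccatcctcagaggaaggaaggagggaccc
*Cdkn2b*: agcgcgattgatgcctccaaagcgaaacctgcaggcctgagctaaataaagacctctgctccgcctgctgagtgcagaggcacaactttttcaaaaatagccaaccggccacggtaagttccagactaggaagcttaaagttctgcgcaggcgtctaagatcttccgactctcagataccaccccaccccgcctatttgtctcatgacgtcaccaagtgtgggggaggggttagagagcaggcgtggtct
The first window was 78.4% G or C with 2 GC boxes, the second 60% and the *Cdkn2b* window 53.6% with none, beside a median of 52.4% over all RefSeq windows. The first *Cdkn2a* start lies 12427 bases from the second and 16413 bases from that of *Cdkn2b*. No window of either gene held an E2F site, a p53 half-site, the SMAD site GTCTAGAC, the TATA box TATAAA (on the strand of the gene) or the E-box CACGTG, which 0.654%, 7.13%, 0.167%, 7.59% and 6.02% of all windows held. The 2 *Cdkn2a* transcripts annotated by GENCODE share a run of 578 bases toward the 3′ end, so that the counts do not tell p16 from p19ARF.

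Within culture code 1 the *Cdkn2a* UMIs sat in a minority of cells. Of 2964 cells, 540 had at least 1 *Cdkn2a* UMI before thinning and 96 (3.24%) had at least 5, with up to 31 in 1 cell. The 5% of cells with the most held 68.2% of the *Cdkn2a* UMIs. *Cdkn2b* was alike, with 619 cells, 132 cells (4.45%) with at least 5, a highest count of 25 and 59.8% of UMIs in the top 5% of cells. *Cdkn1a* and *Cdkn1c* were spread more evenly, with 30.0% and 21.2% of their UMIs in the top 5%. In D6 code 5, where the gene is high, 311 of 662 cells (47.0%) had at least 5 *Cdkn2a* UMIs, and in culture code 9, 36 of 53 (67.9%).

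*Cdkn2a* and *Cdkn2b* were found in the same cells more often than the product of their shares. At 3000 UMIs, 160 of 2595 cells of culture code 1 (6.17%) had UMIs of both, 3.06 times the 2.02% that the product gives. In code 2 it was 23 of 1341 cells (1.72%), 3.19 times the product of 0.537%. The pairs of *Cdkn1a* with *Cdkn2a* (1.39 times in code 1) and with *Cdkn2b* (1.35 times) lay above the product, and those of *Cdkn1b* with *Cdkn2a* and *Cdkn2b* (0.700 and 0.724 times) below. In culture code 9 and D6 code 5, where most cells had *Cdkn2a*, the *Cdkn2a* and *Cdkn2b* pair was at 1.17 and 1.11 times. These are descriptions of single libraries, and cells of 1 code may differ in state and origin.

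**Figure D3:**
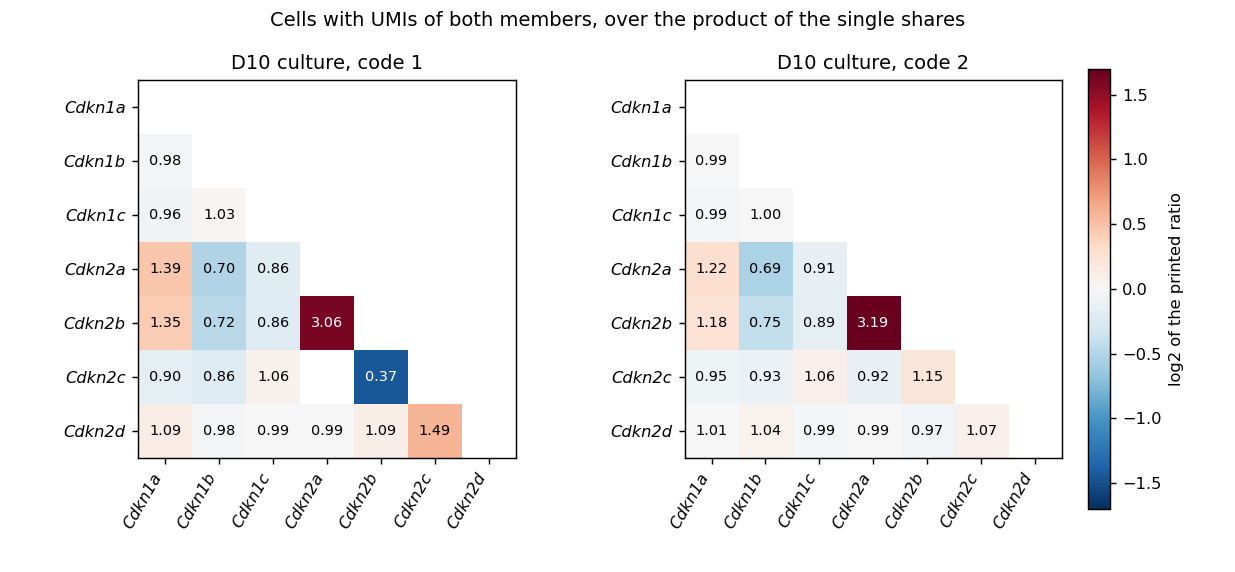
Share of cells with UMIs of both genes divided by the product of the shares of each, for pairs of the 7 genes in codes 1 and 2 of the D10 culture after thinning to 3000 UMIs; color gives log2 of the printed ratio, and lower-triangle cells left blank had fewer than 5 cells by the product. The *Cdkn2a* and *Cdkn2b* pair has the highest ratio of both panels, 3.06 and 3.19.

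The code 1 cells with a *Cdkn2a* UMI also differed in other inhibitors. The 348 such cells had a median of 6963.5 UMIs, and the 2247 without had 5047, and both were thinned to 3000. *Cdkn1a* stood at 749 CPM with and 441 CPM without, a ratio of 1.7 (1.57 to 1.84), and *Cdkn1c* at 981 and 1662 CPM, a ratio of 0.590. The cyclin *Ccnd1*, whose CDK partners the INK4 proteins bind, stood at 219 and 67.2 CPM, a ratio of 3.26 (2.77 to 3.83). The cells had tendon genes at a like level, with ratios of 0.974 for the summed tendon list and of 0.900 for *Scx*. Macrophage markers stood at 5.75 CPM with (6 UMIs) and 1.34 CPM without (9 UMIs), a ratio of 4.30 (1.26 to 13.5), and their part in the other ratios was not tested. The G2/M list had a ratio of 0.908. Splitting on *Cdkn2b* (390 and 2205 cells) gave 1.64 for *Cdkn1a*, 0.520 for *Cdkn1c*, 2.59 for *Ccnd1* and 0.870 (0.0953 to 3.84, on 2 and 13 UMIs) for the macrophage markers, and splitting code 2 on *Cdkn2a* (92 and 1249 cells) gave 1.35, 0.667 and 2.35.

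Most code 1 cells of the tail had UMIs of 1 inhibitor, and most code 1 cells of the culture of 2 or more. At 3000 UMIs, 72.0% of tail code 1 cells had UMIs of exactly 1 of the 7 genes, 23.6% of 2 and 2.21% of 3. In the cycling tail code 2, 48.9% had 1, 36.0% had 2 and 11.8% had 3. In culture code 1 the shares were 27.2% for 1 gene, 39.0% for 2, 21.4% for 3 and 8.36% for 4, and 2.74% of cells had none of the 7, against 2.21% in the tail.

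*Cdkn2c* and *Cdkn2d*, the INK4 genes known to be expressed in dividing precursors, were low in tendon code 1. *Cdkn2c* held 75 UMIs in culture code 1 and 11 in tail code 1, a ratio of 4.16 (2.2 to 8.69), with 1.39% and 0.147% of cells with a UMI, so that the gene did not pass the filter on detection. *Cdkn2d* held 66.4 CPM (1101 UMIs) against 28.0 CPM (283 UMIs), a ratio of 2.37 (2.08 to 2.72). In code 2 both genes lay closer together, *Cdkn2c* at 29.0 and 28.9 CPM, a ratio of 1.01 (0.815 to 1.25), and *Cdkn2d* at 159 and 106 CPM, a ratio of 1.5 (1.36 to 1.67). Their RefSeq windows held 3 GC boxes each before the first *Cdkn2c* start and before *Cdkn2d*, the latter with 1 p53 half-site that overlaps a GC box.

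Code 1 of the culture held more UMIs of G2/M genes than code 1 of the tail, while S phase genes were near each other. The S phase list summed to 1554.5 CPM in culture code 1 and 1470 in tail code 1. Of its 27 detected genes, 3 were at least 2-fold higher in the culture and 1 was lower. The G2/M list summed to 4295 CPM in culture code 1 and 1618 in tail code 1, and 31 of its 38 detected genes were at least 2-fold higher in the culture. At 3000 UMIs, 31.4% of culture and 9.59% of tail code 1 cells had a UMI of *Mki67* or *Top2a*. In the cells without either, thinned to 3000 UMIs, the ratio of culture to tail was 201 (85.9 to 618) for *Cdkn1a*, 0.492 (0.477 to 0.508) for *Cdkn1c*, 2.11 (1.58 to 2.86) for *Cdkn2d* and 1.25 (1.03 to 1.51) for *Cdkn1b*. With 0 tail UMIs in these cells, *Cdkn2a*, *Cdkn2b* and *Cdkn2c* were at least 54.1-fold, 56.2-fold and 2.64-fold higher.

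In the culture, cycling and other tendon cells differed in the INK4 genes more than in the CIP/KIP genes. There, code 2 over code 1 gave 6.42 (4.98 to 8.38) for *Cdkn2c* and 2.40 (2.23 to 2.59) for *Cdkn2d*, both higher in the cycling code, and 0.353 (0.316 to 0.394) for *Cdkn2a* and 0.423 (0.383 to 0.467) for *Cdkn2b*, both lower. In the tail, *Cdkn2c* rose from 11 UMIs (1.09 CPM) to 125 (28.9 CPM), a ratio of 26.6 (14.4 to 54.6), and *Cdkn2d* from 28.0 to 106 CPM, a ratio of 3.79 (3.26 to 4.41). *Cdkn2a* and *Cdkn2b* had too few tail UMIs for a ratio. The share of cells with a *Cdkn2c* UMI was 8.28% in code 2 and 1.39% in code 1 of the culture, and 10.2% and 0.147% in the tail.

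The CIP/KIP genes of the culture differed by less than 2-fold between the 2 codes. The ratio of *Cdkn1b* was 1.63 (1.52 to 1.74) in the culture and 1.82 (1.63 to 2.03) in the tail. *Cdkn1a* had 1.33 (1.29 to 1.37) in the culture and 3.42 (2.02 to 5.86) in the tail, where it rose from 26 to 38 UMIs in a group with fewer UMIs in all. *Cdkn1c* had 1.05 (1.03 to 1.07) in the culture and 0.776 (0.760 to 0.792) in the tail. Of the 7 genes, 2 were at least 2-fold higher and 2 at least 2-fold lower in culture code 2, beside 4.21% and 0.186% of 8077 genes, and 3 and 0 in tail code 2, beside 5.47% and 2.76% of 11298 genes. This contrast too was used to choose the genes, and nothing is read from the counts.

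**Figure D4:**
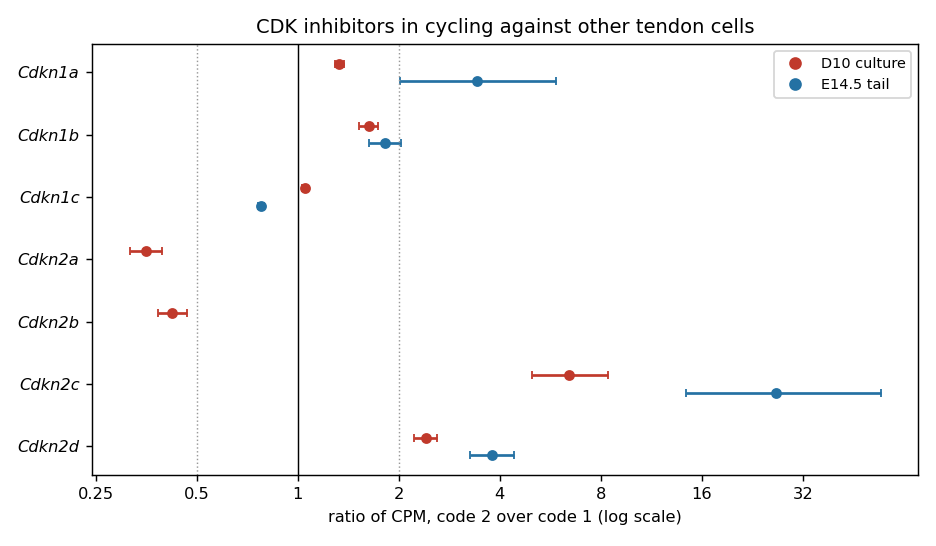
Ratio of CPM of code 2, the cycling tendon code, to code 1 for the 7 genes in the D10 culture and the E14.5 tail, on a log2-spaced axis with exact 95% intervals; dotted lines mark 2-fold in each direction. *Cdkn2c* and *Cdkn2d* lie above 2-fold in both libraries and *Cdkn2a* and *Cdkn2b* below in the culture, and no tail point is drawn for *Cdkn2a* and *Cdkn2b*, which had 1 and 0 UMIs in tail code 2.

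Cells with a *Mki67* or *Top2a* UMI were also compared with those without inside a code. Culture code 1 had 816 such cells and 1779 others at 3000 UMIs, and *Cdkn1a* stood at 346 and 545 CPM, a ratio of 0.634 (0.587 to 0.685). *Cdkn1c* had 0.684 (0.656 to 0.713), *Cdkn2a* 0.662 (0.545 to 0.80) and *Cdkn2b* 0.843 (0.709 to 0.999), and *Cdkn1b* had 1.31 (1.13 to 1.51). Thus *Cdkn1a* and *Cdkn1c* were lower, and *Cdkn1b* higher, in the code 1 cells with such a UMI. The other codes did not all go the same way. Culture code 4 gave 0.765, 0.763 and 1.65 for *Cdkn1a*, *Cdkn1c* and *Cdkn1b*, and D6 code 4 gave 0.788, 0.663 and 1.37. For *Cdkn1c* the ratio was 0.839 (0.770 to 0.914) in tail code 1 and 0.768 in tail code 4, but 1.75 (1.14 to 2.82) in D6 code 3 and 2.50 (1.55 to 3.86) in D6 code 5, where 19 cells had such a UMI. *Cdkn1a* had 1.17 (1.0 to 1.37) in D6 code 1, and *Cdkn1b* 0.234 (0.0278 to 0.874) in tail code 4 on 2 UMIs in 24 cells with such a UMI. In code 2 this split could not be used, since 1330 of 1341 culture and 178 of 186 tail cells had such a UMI.

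Between the somite-like code 4 of D6 PM and tendon code 1 of the D10 culture, the CIP/KIP genes were near each other and *Cdkn2a* and *Cdkn2b* were not. The ratios of culture to D6 were 0.827 for *Cdkn1a*, 0.901 for *Cdkn1b* and 0.841 for *Cdkn1c*. *Cdkn2a* stood at 7.24 CPM in D6 code 4 and 104 CPM in culture code 1, 14.4-fold higher (10.6 to 19.8), and *Cdkn2b* at 1.15 and 115 CPM, 99.4-fold higher (48.2 to 248). Together with *Cdkn2c*, which did not pass the filter on detection, 3 of the 7 genes were at least 2-fold higher, beside 9.88% of 8934 genes, and 0 were lower, beside 10.8%. Between the pluripotent-like code 2 of D6 PM and code 3 of the culture, *Cdkn1a* (0.453) and *Cdkn2a* (0.482) were more than 2-fold lower in the culture, beside 3% of 9179 genes, and 0 were higher, beside 4.14%. Within D6 PM, code 3 is the cycling version of code 1, and 0 of the 4 genes that passed the filter were past 2-fold between them (3.65% higher and 0.214% lower over all genes), with *Cdkn2d* at 1.81, *Cdkn1b* at 1.21 and *Cdkn1c* at 0.532. Codes of the 2 time points were set side by side by their markers, and each is 1 library, so that time and library cannot be told apart.

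The genes around the inhibitors are given from lists of the pathway, in code 1 of the culture against the tail, over genes with a UMI in at least 10% of cells in 1 or both libraries. The shares of all genes to set beside the counts are 5.76% higher and 13.6% lower in code 1, 5.5% and 13.6% in code 2, and 4.86% and 13% in code 4. Of the p53 network, 25 genes that include p53 itself, its regulators and its targets other than *Cdkn1a*, 18 were detected, 12 were at least 2-fold higher and 1 was lower in the culture, with a median log2 ratio of 1.80 beside -0.21 over all genes. The proapoptotic *Pmaip1* had 36.0 CPM against 0.296 (3 UMIs), a ratio of 122, *Dcxr* 46.2 against 3.75, *Ccng1*, a cyclin induced by p53, 180 against 21.1, and *Zmat3*, which encodes an RNA-binding protein, 80.8 against 13.9. *Trp53*, which encodes p53, and *Mdm2*, whose product degrades p53, had ratios of 1.52 and 1.77 and are named for their role. In code 2, 13 of 20 detected genes were higher and 1 lower, and in code 4, 8 of 16 and 0, with median log2 ratios of 2.11 and 1.03 beside -0.18 over all genes in both codes.

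**Figure D5:**
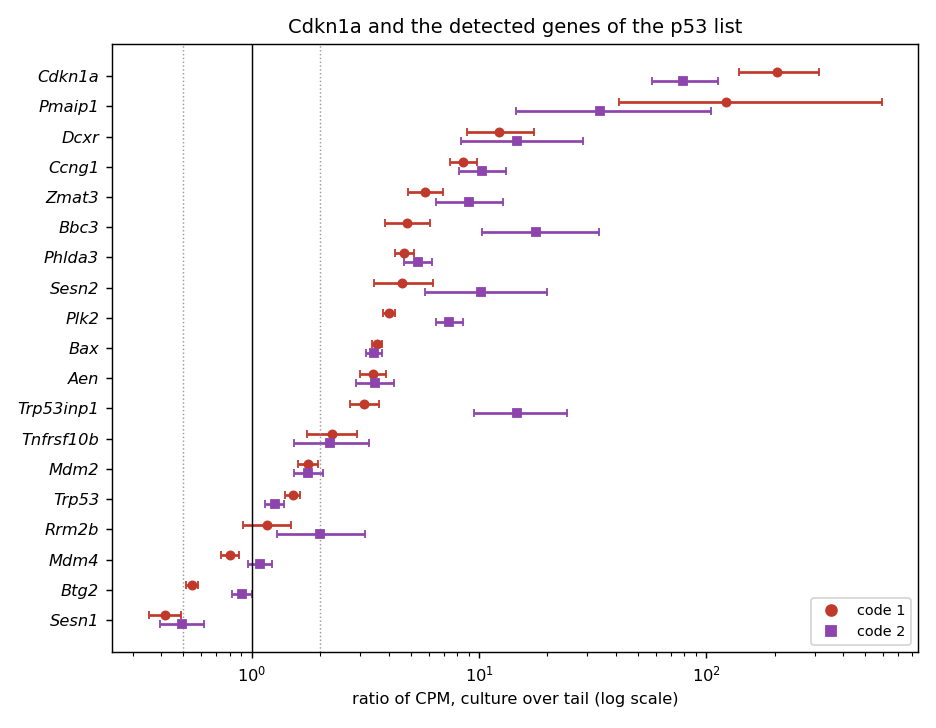
Ratio of CPM of the D10 culture to the E14.5 tail in code 1 (circles) and code 2 (squares) for *Cdkn1a* and the 18 genes of the p53 network detected in code 1, on a log scale with exact 95% intervals; dotted lines mark 2-fold in each direction. *Cdkn1a* has the highest ratio, most of the list lies to the right of the 2-fold line, and *Sesn1* is the gene of the list past 2-fold on the left in code 1.

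Cells with a *Cdkn1a* UMI in culture code 1 held more of the p53 list as well. In 1367 cells with and 1228 without, thinned to 3000 UMIs, the summed list without *Cdkn1a* had a ratio of 1.57, *Ccnd1* 1.89, the G2/M list 0.774 and *Cdkn1c* 0.839. For cells with and without a *Cdkn2a* UMI the list had 1.45. The part of p53 in these levels was not tested.

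Of the polycomb proteins and other repressors of the *Cdkn2a* locus, 18 of 19 genes were detected, 0 were at least 2-fold higher and 2 were lower, with a median log2 ratio of -0.32, so that the share of lower genes was near that over all genes. The lower genes were *Tbx3*, a T-box repressor, at 4.82 CPM against 92.9, and the polycomb gene *Cbx8*, at 4.46 against 14.6, while *Ring1* (14.8 against 29.6) was just short of 2-fold. The ratio of *Bmi1*, the polycomb gene best known at this locus and named for that, was 0.567. In code 2, 0 were higher and 3 lower.

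Of 15 cyclins and CDKs, 4 were at least 2-fold higher in culture code 1, and 2 were lower. The higher genes were those of S and G2/M cyclins and their kinase, such as *Ccnb1* (41.2 CPM against 4.84) and *Ccna2* (69.9 against 11.4). The share of lower genes was near that over all genes, and the lower genes were *Cdk6* at 8.50 against 45.3 CPM and *Ccnd1* at 104 against 210. *Cdk4* and *Ccnd2*, the highest of the list by level, had ratios of 1.19 and 1.05. In code 2, where cycling cells are compared with cycling cells, 0 were higher and 2 lower, again *Ccnd1* (0.388) and *Cdk6* (0.210).

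Of the RB and E2F genes, which act below the INK4 proteins, 0 of 10 detected were higher and 1 lower, *Tfdp2*, an E2F partner, at 29.8 against 72.9 CPM, which is near the share over all genes. Of the genes that turn over CIP/KIP proteins, 1 of 12 was higher, the mitotic *Cdc20* (6.99), and 0 lower. Of 14 detected genes of the TGFβ response, 6 were higher and 1 lower, with a median log2 ratio of 0.69, among them *Bhlhe40* (11.4), *Ctgf* (5.39) and *Pmepa1* (4.38). TGFβ1 was in the medium of the culture beside FGF2 and SAG, and its part in these ratios was not tested.

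Over 27 combinations of library and code with at least 50 cells, the genes with levels most like each inhibitor were found by Pearson correlation of log2(CPM + 10) among 8454 genes. These combinations share libraries and are not independent, and the values are a description. *Cdkn2a* was most like *Cdkn2b* (0.953), then *Ak1* (0.893) and *Ano3* (0.876). *Cdkn1a* was most like the p53 targets *Ccng1* (0.913), *Zmat3* (0.874) and *Phlda3* (0.873), and *Cdkn1c* like *Nfia* (0.911), *Svbp* (0.877) and *Eid1* (0.876). *Cdkn2d* was most like *Mxd3* (0.737), as was *Cdkn2c* (0.875), which stayed below the minimum of 50 CPM set for the other genes, and *Cdkn1b* like *Arrdc3* (0.829). Among the inhibitors themselves, *Cdkn1a* followed *Cdkn2a* with 0.769 and *Cdkn2c* followed *Cdkn2d* with 0.703, while *Cdkn1c* and *Cdkn2a* had -0.303.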

How the data were processed

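The deposited files hold UMI counts per gene and cell, 1 table per library, with the cluster code of each cell. The authors made the counts with Cell Ranger from 3′ 10x libraries, ignored reads that mapped to several places, filtered cells on the mitochondrial share and on the lowest and highest transcript totals, and clustered them in Seurat (version 3.0). The genome build of the counts is not given in the sources used here. Gene symbols are those of the files. The tables hold no comparisons by the authors, and 0 columns belonged to other series.

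UMIs were summed per code and library and divided by all UMIs of those cells to give CPM. Libraries held 53403944 (culture), 31343741 (tail) and 51858825 (D6 PM) UMIs. Intervals at 95% are Poisson for CPM, conditional binomial for ratios and Clopper-Pearson for shares, and cover counting error only. Each condition is 1 library, so no p-value was computed across samples. A gene was called past 2-fold, and entered the counts over all genes where at least 10% of cells of either group had a UMI before thinning. Ratios against 0 UMIs use 3 counts over the group as a floor. Codes with under 20 cells were left out. Cells were thinned to 3000 UMIs with seed 1, which left out 1157, 100 and 1006 shallower cells. Doublets were called with Scrublet in Scanpy 1.11.5 at a rate of 6% and kept in the main values. The ratio, its interval and the 2-fold call were tested on simulated counts, and the thinning step was not. Python 3.11.15, NumPy 2.4.6, SciPy 1.17.1 and Matplotlib 3.10.9 were used. Promoter windows are the 250 bases before each RefSeq start.

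The members, the pathway lists and the rule for named genes (the 7 inhibitors, at most 4 members of each list by summed CPM or ratio, and the 3 genes most like each inhibitor) were chosen with earlier results of these data known. Alternatives were another denominator, removal of doublet calls or of cells under 1000 genes, the mean of CPM per cell, thinned counts, scaling to the median gene, a fold of 1.5, cells without *Mki67* and *Top2a* UMIs and, added after the data were seen, cells with a *Scx* UMI.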

Additional observations from a re-analysis of the deposited data

Results flagged for a closer look

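*Cdkn1a* was higher in the culture than in the tail in 9 of 10 codes and lower in code 5, with a ratio of 0.560. The culture cells of code 5 held 36.8 CPM of *Myog* and the tail cells 1331 CPM, and their skeletal muscle markers summed to 422 and 6266 CPM. Markers also differed between the libraries in codes 3 and 6, where *Cdkn1a* was higher in the culture. The difference in *Cdkn1a* between the codes was not tested, since each library is 1 sample.

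*Cdkn1c* moved in opposite directions between code 1 and the cycling code 2, with a ratio of code 2 to code 1 of 1.05 in culture cells and 0.776 in tail cells. The difference between the libraries was not tested. As a mean of CPM per cell the culture ratio was 0.998.

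*Cdkn2c* was higher in the culture in code 1, with a ratio of 4.16 on 75 and 11 UMIs. It was lower, with an interval below 1, in code 3 (0.227, 0.0989 to 0.567) and code 5 (0.281, 0.123 to 0.633, on 13 and 15 UMIs). The ratio was also below 1 in code 11 (0.307, on 1 and 14 UMIs) and code 7 (0.630, on 4 and 3 UMIs), where the intervals included 1. In codes 1, 5 and 7 the gene did not pass the filter on detection. The difference was not tested.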

How the results depend on the processing

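Over the alternatives, the 46 recomputed counts of inhibitors past the threshold stayed within 1.5 times the reported count. The threshold was 2-fold, or 1.5-fold for 6 of the 46. At 1.5-fold, *Cdkn1c* (0.529) would be lower in code 2 of the culture, where 0 genes were reported lower than in the tail. Of 186 recomputed ratios, none that was past 2-fold changed direction and 49 moved beyond their counting interval. Of 56 recomputed shares of cells, which rise with depth, 45 moved. The 16 ratios past 2-fold stayed past it under another denominator, without doublet calls, without cells under 1000 genes, as a mean of CPM per cell, after thinning and relative to the median gene. Thinned counts leave 0 tail UMIs of *Cdkn2a* and *Cdkn2b* in code 1, with bounds of at least 53.5-fold and 59.0-fold, and in code 2 of at least 5.13-fold and 6.84-fold. In cells without *Mki67* and *Top2a* UMIs, code 2 keeps 11 culture and 8 tail cells and gives 2 genes past 2-fold in place of 3, *Cdkn1a* and, on 4 and 1 UMIs, *Cdkn2d*, which was not among the 3, while *Cdkn2a*, *Cdkn2b* and *Cdkn2c* have no value there. In cells with a *Scx* UMI, an alternative chosen after seeing the data, 7 of 9 ratios stayed past 2-fold, 7 of 14 moved by over 1.5 times (*Cdkn1a* to 90.3 in code 1 and 36.9 in code 2), and the bounds of *Cdkn2c* in code 1 (at least 1.04-fold) and *Cdkn2a* in code 2 (at least 1.95-fold) were short of it for want of tail UMIs. The lowest levels are limited by depth, since 1 UMI decides the ratio of *Cdkn2a* to tail codes 1, 2, 8 and 9. No paired analysis was possible because each condition is 1 library and no replicate was given.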
